A study of Homo sapiens with 9 samples.

Results

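Transcripts of 10 genes for secreted inflammatory factors were followed in MDA-MB-231 cells, a human triple-negative breast cancer line, before and after the copper chelator TEPA, a polyamine that binds copper ions. They are the cytokines IL6, IL11, LIF, IL1A, IL1B and CSF2 and the CXC chemokines CXCL1, CXCL2, CXCL3 and CXCL8, taken by name from 59453 gene names in the count table. All 10 passed the filter on low counts, which left 16556 genes for testing. RNA was sequenced from 3 untreated libraries, 3 libraries of cells given TEPA for 8 h and 3 given TEPA for 24 h. The labels put the TEPA concentration for this line at 8 mM, the methods of the study name it beside a lower one, and their section on sequencing gives only the lower. The labels' protocol text names only the 24 h treatment. The same untreated libraries serve both times, so the comparisons at 8 h and 24 h share their controls. The labels give no time for the untreated libraries, so differences between 8 h and 24 h may hold time in culture as well as TEPA. All groups are the same unmodified line. No source used here says that replicates were separate cultures, so p-values measure the spread between these libraries, which may be technical.

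Total counts per library ranged from 34633755 to 49342659. Levels are given below as CPM, the usual depth-scaled count, here adjusted by TMM factors, and the lowest count of any of the 10 genes in any library was 6. The line's own markers were present, with VIM at 3674 CPM, AXL at 685 CPM and EGFR at 435 CPM in untreated cells, while of 4 markers taken as low in this line PGR was at 0, ESR1 at 0.155 CPM, EPCAM at 1.13 CPM and GATA3 at 10.6 CPM. These are bulk libraries, in which fewer cells making a transcript and less of it per cell cannot be told apart. Untreated replicate 1 stood apart for these genes. It held the highest untreated value of 8 of the 10, and values without it are given beside the main results that it moved.

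IL-6, IL-11 and LIF signal through receptors that share the gp130 subunit and act on JAK and STAT proteins. IL-1α and IL-1β bind the IL-1 receptor and activate NF-κB, a factor that in turn drives many cytokine and chemokine genes. GM-CSF, the product of CSF2, acts on myeloid cells, and the chemokines CXCL1, CXCL2, CXCL3 and CXCL8 carry an ELR motif and attract neutrophils through CXCR2. Tumor cells of the basal type are known to secrete several of these factors. Many of the transcripts are short-lived and carry AU-rich elements in the 3′ UTR.

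The stretches before the start sites are shown because κB sites are the best known control elements of these genes. Each line is 100 bases from RefSeq, build GRCh38, written 5′ to 3′ on the gene's own strand, and ends 41 bases before the start site. Capitals mark a match to the κB consensus.
CXCL1 (chr4:73869253-73869352, plus strand): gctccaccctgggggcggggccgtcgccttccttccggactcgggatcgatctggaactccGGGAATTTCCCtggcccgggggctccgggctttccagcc
CXCL2 (chr4:74099236-74099335, minus strand): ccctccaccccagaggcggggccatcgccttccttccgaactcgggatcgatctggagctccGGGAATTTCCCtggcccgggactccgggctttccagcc
CXCL3 (chr4:74038730-74038829, minus strand): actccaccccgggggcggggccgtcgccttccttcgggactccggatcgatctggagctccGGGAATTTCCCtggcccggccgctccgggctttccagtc
IL6 (chr7:22727060-22727159, plus strand): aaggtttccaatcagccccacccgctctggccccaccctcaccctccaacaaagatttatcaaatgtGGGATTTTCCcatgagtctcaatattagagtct
CXCL8 (chr4:73740429-73740528, plus strand): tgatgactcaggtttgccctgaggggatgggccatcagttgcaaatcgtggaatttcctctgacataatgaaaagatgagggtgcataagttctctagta
IL11 (chr19:55370504-55370603, minus strand): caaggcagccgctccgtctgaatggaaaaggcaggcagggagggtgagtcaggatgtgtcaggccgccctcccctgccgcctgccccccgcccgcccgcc

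Promoter windows of 300 bases were found for 9 of the 10 genes. The κB consensus, searched on both strands, occurred in 4 of the 9, namely IL6, CXCL1, CXCL2 and CXCL3, and in 11.3% of all 35116 promoter windows. The 3 chemokine windows share a run of 23 bases that holds the match. The AP-1 motif TGANTCA lay in 3 of the 9, IL11, IL1A and CXCL8, against 7.71% of all windows. TTNNGNAA, the C/EBP motif, was in 4 of the 9 against 36.8%, and TATAAA in 2 of the 9 against 11.5%. Among the 16005 windows of tested genes the shares were 13.4% for κB, 5.54% for AP-1, 27.5% for C/EBP and 6.26% for TATAAA. A match is a description of the letters, and its absence from a window says nothing of the factor.

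In GENCODE on the same build, the chemokine genes lie on chromosome 4, CXCL8 at chr4:73740519-73743716 and CXCL1 at chr4:73869393-73871308 on the plus strand, and CXCL3 at chr4:74036589-74038807 and CXCL2 at chr4:74097040-74099196 on the minus strand. IL6 lies at chr7:22725884-22732002 and CSF2 at chr5:132073789-132076170, both on the plus strand. IL11 lies at chr19:55364382-55370463, LIF at chr22:30240453-30246759, IL1A at chr2:112773925-112784493 and IL1B at chr2:112829751-112836816, all on the minus strand. The RefSeq start sites used for the windows above are not always the outer ends of these spans. The IL6 window lies inside the span of its gene, and the CXCL3 and CXCL8 windows run partly into theirs. No exon of the 10 overlaps one of another gene on its strand.

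At 8 h of TEPA 9 of the 10 genes fell and CXCL3 did not pass the test. The median log2 fold change of the 10 was -1.30, beside -0.0013 over all genes tested. Of all genes tested, 24.5% fell and 25.2% rose by the same rule, a Benjamini-Hochberg adjusted p under 0.05 in edgeR's quasi-likelihood test. None of the 10 was called higher, 0 were higher at an unadjusted p under 0.05, and DESeq2 called 0 higher and 9 lower. After 24 h the test called 5 genes lower and 0 higher, with a median log2 fold change of -0.24 beside 0.0023 over all genes. The background at 24 h was 26.8% lower and 25.7% higher. At that time 1 gene, CXCL1, was higher at an unadjusted p under 0.05, and DESeq2 called 0 higher and 4 lower. Without untreated replicate 1 the counts were 9 lower and 0 higher at 8 h and 4 lower and 3 higher at 24 h, where IL6, CXCL1 and CXCL8 were the 3 higher. In that fit of 16910 genes 22.4% were lower and 22.5% higher at 8 h, and 26.6% lower and 25.1% higher at 24 h. The median of the 10 without that library was -0.87 at 8 h and 0.02 at 24 h, so the sign of the 24 h median rests on it.

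From 8 h to 24 h 6 of the 10 genes rose, IL6, CSF2 and the 4 chemokines, and IL11 and LIF fell further. This comparison does not use the untreated libraries' values as a baseline. Of all genes tested, 26.0% were called higher and 28.8% lower at 24 h against 8 h. IL6, CXCL1 and CXCL8 are among genes that the study itself picked from these libraries, so their direction is not independent evidence.

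**Figure D1:**
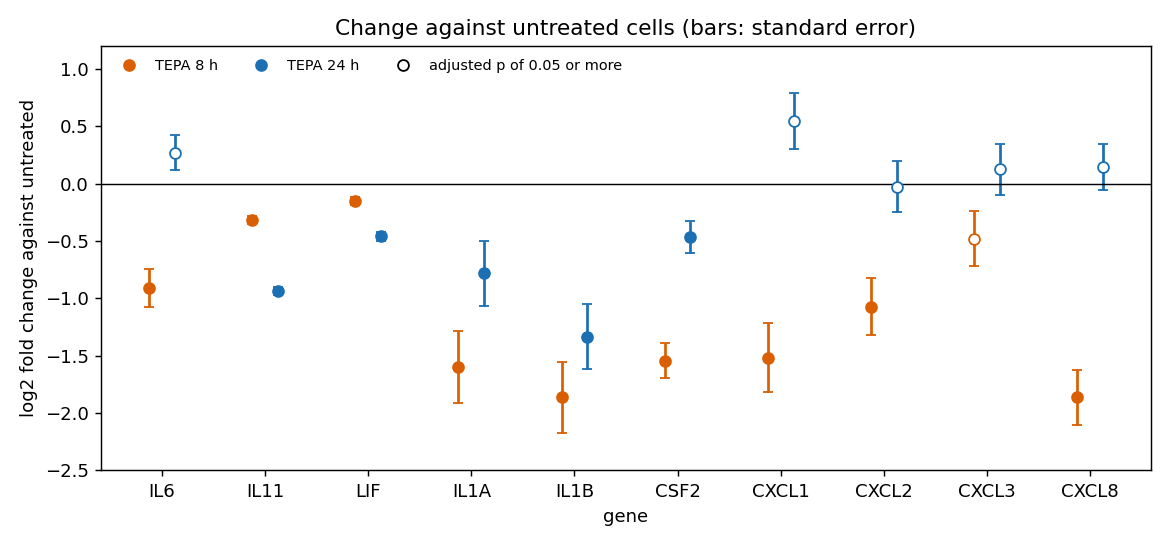
The y axis gives the log2 fold change against untreated cells for each gene on the x axis, at 8 h (orange) and 24 h (blue) of TEPA, with bars of 1 standard error and open symbols for an adjusted p of 0.05 or more. At 8 h all but CXCL3 are filled below 0, while at 24 h IL6 and the 4 chemokines are open.

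CXCL8 encodes the neutrophil attractant IL-8 and had the greatest fall of the 4 CXCR2 ligands at 8 h. Its level was 18.3, 8.19 and 9.99 CPM in the untreated libraries. It was 3.45, 3.35 and 3.13 CPM after 8 h of TEPA and 11.7, 14.9 and 13.4 CPM after 24 h. All 8 h libraries lay below all others, and the 24 h values fell within the untreated range. Against untreated cells the log2 fold change at 8 h was -1.86 (SE 0.237, adjusted p = 9.7e-06, edgeR), a 3.64-fold lower level, and -1.45 without untreated replicate 1. At 24 h it was 0.14 (SE 0.199, adjusted p = 0.58), and without untreated replicate 1 it was 0.55 (adjusted p = 0.00024). Without untreated replicate 2 the value was -0.09 (edgeR adjusted p = 0.7). The rise from 8 h to 24 h was 4.02-fold (adjusted p = 2.9e-06).

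CXCL1, another ligand of CXCR2, was measured at 8.59, 2.89 and 4.39 CPM in untreated cells, 1.77, 2.14 and 1.52 CPM after 8 h and 7.26, 7.88 and 7.70 CPM after 24 h. Its 24 h libraries were close together, above 2 of the untreated libraries and below the other. The 8 h level was 2.87-fold lower than in untreated cells (log2 fold change -1.52, SE 0.299, adjusted p = 0.00058). Without untreated replicate 1 the log2 fold change was -0.99 (edgeR adjusted p = 0.00017). At 24 h the log2 fold change against untreated cells was 0.54 (SE 0.246, adjusted p = 0.075), and 1.07 (adjusted p = 7.3e-06) without untreated replicate 1. It was 0.23 (edgeR adjusted p = 0.32) without untreated replicate 2. From 8 h to 24 h CXCL1 rose 4.18-fold, the greatest rise of the 10 genes (adjusted p = 1.8e-05).

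CXCL2, a close relative, stood at 3.79, 1.93 and 2.38 CPM in untreated cells, 1.30, 1.60 and 0.898 CPM after 8 h and 2.30, 2.73 and 2.89 CPM after 24 h. The 8 h group lay below both other groups without overlap, and the 24 h group lay inside the untreated range. It fell 2.10-fold at 8 h (log2 fold change -1.07, edgeR adjusted p = 0.0019), with -0.76 when untreated replicate 1 was left out (edgeR adjusted p = 0.0071), and was 2.07-fold higher at 24 h than at 8 h (adjusted p = 0.0018). CXCL3 gave 1.73, 1.09 and 1.47 CPM in untreated cells, 0.975, 0.967 and 1.12 CPM after 8 h and 1.14, 1.99 and 1.56 CPM after 24 h. The untreated and 8 h values of CXCL3 overlapped, with a log2 fold change of -0.48 (SE 0.239, adjusted p = 0.11). At 24 h it was 1.52-fold higher than at 8 h (edgeR adjusted p = 0.039). Leaving out any of 5 libraries ended that call. CXCL1, CXCL2 and CXCL3 are closely related paralogs in a cluster on chromosome 4, but none of the 100-base windows of any of the 10 canonical transcripts occurs in a transcript of another gene.

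**Figure D2:**
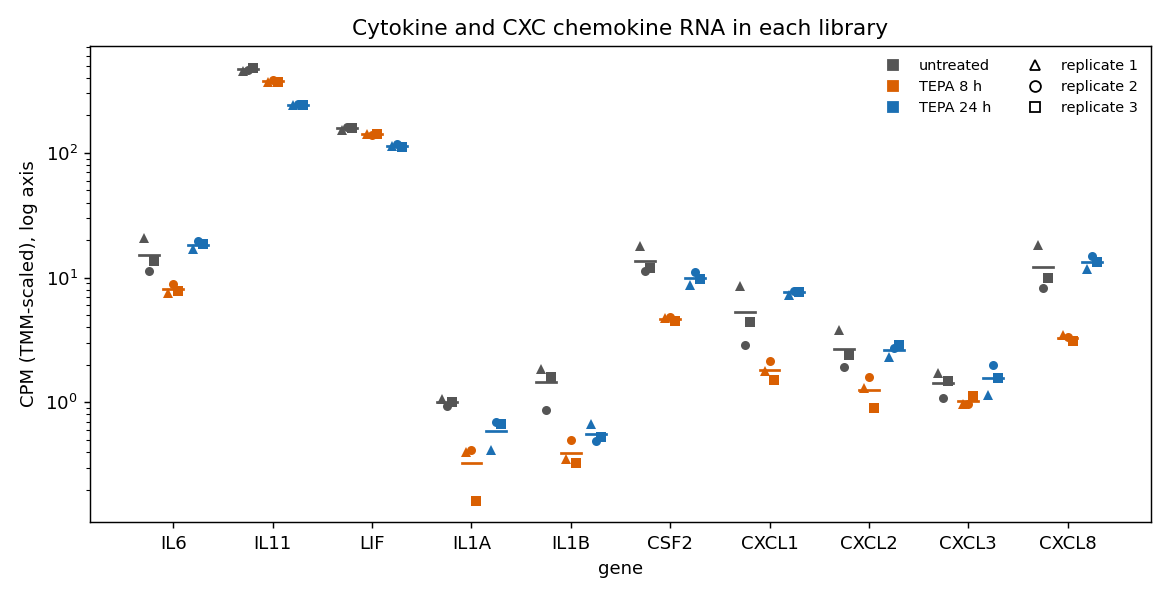
The y axis gives CPM on a log axis for each gene on the x axis, with a symbol for each library (triangle, circle and square for replicates 1, 2 and 3), a color for each group and a line for the group mean. The 8 h points of CXCL8, CXCL1, CSF2 and IL6 lie below all untreated points, and untreated replicate 1 is the highest untreated point for each of these 4 genes.

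IL6, a gp130 cytokine made by many basal tumor lines, had 20.9, 11.4 and 13.7 CPM in untreated cells, 7.60, 8.81 and 7.86 CPM after 8 h and 16.9, 19.7 and 18.6 CPM after 24 h. The 8 h group lay below both others, and the 24 h values lay between the highest untreated library and the remaining ones. IL6 fell 1.88-fold at 8 h (log2 fold change -0.91, SE 0.164, adjusted p = 0.00027), and the value was -0.63 without untreated replicate 1. The log2 fold change at 24 h was 0.27 (SE 0.151, adjusted p = 0.15), and 0.55 (adjusted p = 5.3e-05) without untreated replicate 1. Leaving out untreated replicate 2 instead gave 0.09 (edgeR adjusted p = 0.6). Between the treated groups IL6 was 2.27-fold higher at 24 h (adjusted p = 1.5e-05).

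IL11, a gp130 cytokine linked to bone metastasis, followed another course. Its libraries read 454, 464 and 482 CPM untreated, 370, 386 and 368 CPM after 8 h and 244, 246 and 241 CPM after 24 h. The 3 groups did not overlap, and each later group was lower than the one before. The fall was 1.25-fold at 8 h (log2 fold change -0.32, SE 0.0359, adjusted p = 3.1e-06) and 1.92-fold at 24 h (log2 fold change -0.94, SE 0.0363, adjusted p = 2.5e-11). LIF, which keeps stem cells undifferentiated, read 153, 161 and 158 CPM untreated, 141, 140 and 142 CPM after 8 h and 113, 117 and 112 CPM after 24 h. Its groups were also apart, with smaller steps. The log2 fold change of LIF was -0.15 (SE 0.0359, edgeR adjusted p = 0.0022) at 8 h and -0.46 (SE 0.036, adjusted p = 4.3e-08) at 24 h. From 8 h to 24 h the log2 fold change was -0.62 for IL11 (adjusted p = 2.1e-09) and -0.31 for LIF (adjusted p = 3e-06).

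The IL-1 ligands were the least abundant of the cytokines, so their values rest on few reads. IL1A, which encodes the membrane-bound or released alarmin IL-1α, had 40, 43 and 40 counts in untreated cells, 16, 16 and 6 after 8 h and 21, 30 and 24 after 24 h of TEPA. The treated libraries were all below the untreated ones. IL1A fell 3.03-fold at 8 h (log2 fold change -1.60, SE 0.317, adjusted p = 0.00061) and 1.72-fold at 24 h (edgeR adjusted p = 0.029). The 24 h call was lost without untreated replicate 1 (adjusted p = 0.056), without untreated replicate 3 (0.064), without TEPA 24 h replicate 1 (0.15) and with DESeq2 (0.058). IL1B, whose product needs cleavage to become active, had 70, 40 and 63 counts untreated, 14, 19 and 12 after 8 h and 34, 21 and 19 after 24 h of TEPA. Treated and untreated libraries did not overlap. The IL1B level was 3.64-fold lower at 8 h (log2 fold change -1.86, SE 0.31, adjusted p = 0.00013) and 2.52-fold lower at 24 h (adjusted p = 0.00097). Between 8 h and 24 h the log2 fold change was 0.82 for IL1A (adjusted p = 0.053) and 0.53 for IL1B (adjusted p = 0.22).

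CSF2, which encodes the myeloid growth factor GM-CSF, measured 17.9, 11.3 and 11.9 CPM untreated, 4.72, 4.81 and 4.49 CPM after 8 h and 8.67, 11.2 and 9.76 CPM after 24 h. The 8 h libraries were the lowest by a wide gap, and the 24 h libraries lay just under the untreated ones without overlap. CSF2 fell 2.92-fold at 8 h (log2 fold change -1.54, SE 0.154, adjusted p = 9e-07) and 1.39-fold at 24 h (log2 fold change -0.47, SE 0.14, adjusted p = 0.01). The 24 h call was lost without TEPA 24 h replicate 1 (log2 fold change -0.38, adjusted p = 0.06), and without untreated replicate 1 the value was -0.24 (edgeR adjusted p = 0.042). The 8 h value without that untreated library was -1.31. From 8 h to 24 h CSF2 rose 2.11-fold (adjusted p = 3e-05).

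The spread among untreated libraries was wide for the chemokines. The highest untreated CPM was 2.97 times the lowest for CXCL1, 2.24 times for CXCL8, 2.13 times for IL1B and 1.84 times for IL6, against a median of 1.13 over the tested genes. For IL11 and LIF the ratios were 1.06 and 1.05. A ratio as great as that of CXCL1 was seen in 2.34% of tested genes. Untreated replicate 1 was the highest untreated library for 38.9% of all tested genes, and for all members other than IL11 and LIF. Mitochondrially encoded genes took 1.79%, 2.91% and 2.13% of counts in the untreated libraries. They took 3.98%, 3.61% and 4.02% after 8 h of TEPA and 2.02%, 1.89% and 1.95% after 24 h. Their share was thus highest where the chemokines were lowest, and its part in the result was not tested.

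**Figure D3:**
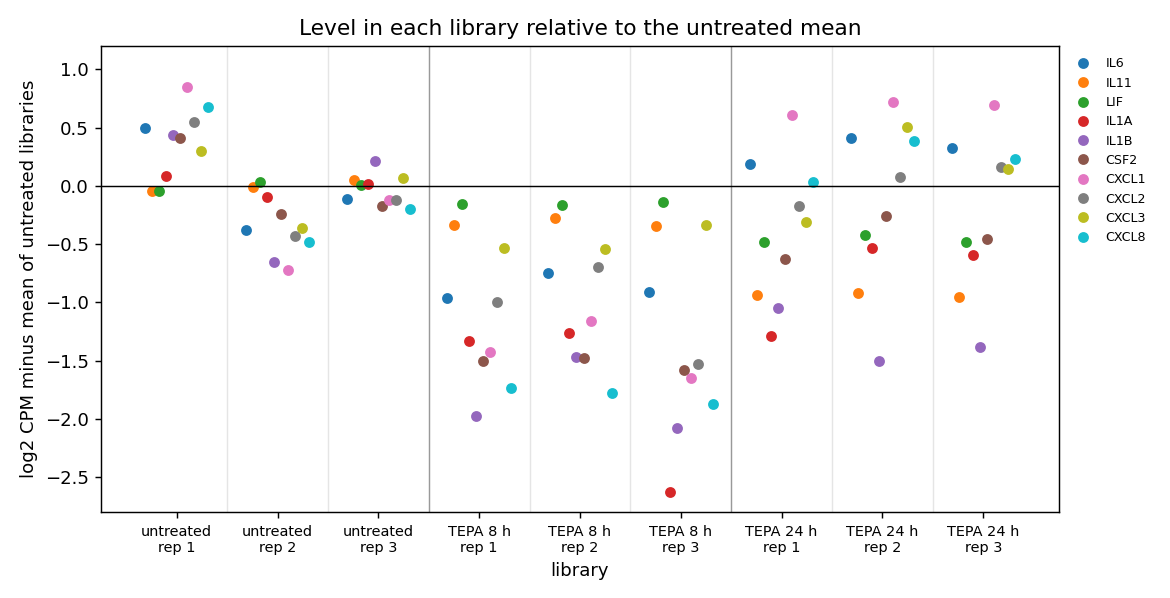
The y axis gives the log2 CPM of each gene minus its mean over the untreated libraries, for the 9 libraries on the x axis, with a colored point for each gene. Untreated replicate 1 lies mostly above 0, the 8 h libraries lie below 0, and in the 24 h libraries IL6, CXCL1 and CXCL8 lie above 0, IL11, LIF, IL1A, IL1B and CSF2 lie below it, and CXCL2 and CXCL3 lie on both sides.

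Levels between genes were compared as CPM per kilobase of exon. In untreated cells IL11 was the most abundant at 174 ± 5.44 CPM per kilobase (SD, n = 3), then LIF at 40.6 ± 1.06 and CSF2 at 17.4 ± 4.59. CXCL8 at 4.70 ± 2.09, CXCL1 at 3.88 ± 2.17 and IL6 at 3.54 ± 1.15 CPM per kilobase were neighbors within their spread on this length. That closeness depends on the length used. The exons of IL6 span 4321 bases in all, but its canonical transcript has 1127. For CXCL8 these lengths are 2588 and 1642 bases, and for CXCL1 1362 and 1174. Levels on canonical lengths were not computed. CXCL2 had 1.93 ± 0.693, and CXCL3, IL1A and IL1B had 0.646 ± 0.145, 0.499 ± 0.0311 and 0.481 ± 0.17 CPM per kilobase. IL11, LIF and CSF2 kept the top places in that order at 8 h and at 24 h. With the longest transcript as length, IL6 and CXCL1 changed places and IL1B came before CXCL3 and IL1A.

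The 3′ UTRs of all 10 genes hold the AU-rich pentamer ATTTA, which 75.2% of tested genes hold. CSF2 had 8 copies in 318 bases, or 25.2 per kilobase, IL6 had 14.1 and CXCL2 had 14.0 per kilobase, against a median of 1.78 over 12222 tested genes. LIF, with 2.19 per kilobase, and IL1A, with 4.38, were the least dense. The nonamer TTATTTATT was found in 8 of the 10 and in 9.88% of tested genes. Among 11 factors of cytokine mRNA decay or binding, 8 are known for AU-rich elements, while ZC3H12A, RC3H1 and RC3H2 are known for stem-loops. Of the 11, 4 rose and 0 fell at 8 h (0 lower at an unadjusted p under 0.05 and 0 by DESeq2), and at 24 h 5 rose and 4 fell. The 3 stem-loop factors are among the 5 that rose at 24 h, and the others are ZFP36 and ZFP36L1. The medians of the 11 were 0.06 and 0.02 on the log2 scale. Of all genes tested, 24.5% fell and 25.2% rose at 8 h, and 26.8% fell and 25.7% rose at 24 h. These shares are the background for the list counts below as well. ZFP36, which encodes the decay factor tristetraprolin, rose by 0.26 at 8 h and by 0.45 at 24 h on the log2 scale.

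Of 12 receptor genes 8 were tested, and 5 fell and 1 rose at 8 h, with 4 lower and 3 higher at 24 h. Their median log2 fold changes were -0.27 and -0.10. IL6R, the IL-6 binding chain, fell by 0.70 on the log2 scale at 24 h (edgeR adjusted p = 1.3e-05) and is also on the study's own gene list. IL6ST, which encodes gp130, rose by 0.54 at 24 h (adjusted p = 1.4e-06). IL1R1, the signaling receptor for IL-1, fell by 0.71 at 8 h and rose by 0.42 at 24 h, both on the log2 scale. CXCR2 was at 0 counts in all 9 libraries.

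Among 14 upstream receptors and adaptors, 9 fell and 1 rose at 8 h, and 5 fell and 6 rose at 24 h. Without untreated replicate 1, 8 fell and 2 rose at 8 h, and the 24 h counts were the same. Of these 14, 6 were picked by the study on these libraries, so the count is not independent evidence. The list's median log2 fold change was -0.25 early and -0.02 late. TLR2, a sensor of bacterial lipoproteins, fell by 1.72 on the log2 scale at 8 h (edgeR adjusted p = 0.00062), from 36, 46 and 28 counts untreated to 14, 8 and 9. IKBKG, the regulatory subunit of the IκB kinase, had -0.32 at 8 h and -0.92 at 24 h.

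The 13 NF-κB subunits and feedback genes had 6 lower and 2 higher at 8 h and 9 higher at 24 h, with 0 lower at 24 h (0 at an unadjusted p under 0.05 and 0 by DESeq2). Their median moved from -0.07 at 8 h to 0.42 at 24 h on the log2 scale, and 12 of the 13 were higher at 24 h than at 8 h. NFKBIA, which encodes the inhibitor IκBα and is itself a target of NF-κB, had -0.26 at 8 h and 0.69 at 24 h. BIRC3, an inhibitor of apoptosis, had 0.08 at 8 h, where it did not pass the test, and 2.04 at 24 h (adjusted p = 2e-12).

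Of 8 C/EBP and AP-1 factors, 3 fell and 2 rose at 8 h, and 2 fell and 3 rose at 24 h, around medians of -0.32 and 0.0042 on the log2 scale (-0.21 and 0.06 without untreated replicate 1). Over all genes tested 24.5% fell and 25.2% rose at 8 h, and 26.8% fell and 25.7% rose at 24 h, so these counts are near the background. CEBPD, a factor induced in the acute phase response, averaged 36.8 CPM untreated, 14.5 CPM after 8 h and 53.6 CPM after 24 h. CEBPD fell by 1.34 on the log2 scale at 8 h (edgeR adjusted p = 1.2e-06) and rose by 0.55 at 24 h (edgeR adjusted p = 0.0015). JUND had -0.96 and CEBPB -0.49 at 8 h. The 2 that rose at 8 h were FOSL1, by 0.35, and JUN, by 0.27 on the log2 scale.

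Of 19 other cytokine genes 12 were tested, with 4 lower and 0 higher at 8 h (1 higher at an unadjusted p under 0.05, 0 by DESeq2) and 2 lower and 3 higher at 24 h. Their median log2 fold change went from -0.35 to 0.34, and the 8 h median was -0.18 without untreated replicate 1. The study's own gene list holds 1 of the 19, IL15. CSF1, the macrophage growth factor, averaged 354 ± 53.7 CPM untreated, 205 ± 8.89 CPM after 8 h and 591 ± 40.3 CPM after 24 h, with the SD of 3 libraries. Against untreated cells CSF1 fell by 0.79 on the log2 scale at the early time (edgeR adjusted p = 9.3e-07), and it rose by 0.74 at the late time (edgeR adjusted p = 1.1e-06). CSF3, the granulocyte growth factor, had -0.48 at 8 h and -0.59 at 24 h. Of 9 other CXC chemokines only 2 were tested, and CXCL14 was lower at 8 h (log2 fold change -1.81, edgeR adjusted p = 0.0094). CXCL14 rests on few reads, with 19, 25 and 13 counts untreated and 8, 4 and 3 after 8 h. Of 10 CC and CX3C chemokines 4 were tested, and CCL2, which draws monocytes and averaged 0.413 CPM before treatment, was lower at 8 h (log2 fold change -1.94, adjusted p = 0.0037).

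Of 12 other genes linked to inflammation 10 were tested, with 6 lower and 1 higher at 8 h and 5 lower and 2 higher at 24 h. The medians were -0.67 and -0.19 on the log2 scale, and 2 of the 12, PTX3 and PLAU, were picked by the study on these libraries. Without untreated replicate 1 the number higher at 24 h was 4 and the 8 h median was -0.43. ICAM1, a leukocyte adhesion receptor, fell by 0.97 on the log2 scale at 8 h (edgeR adjusted p = 3.9e-05), and its 24 h value of 0.30 did not pass (edgeR adjusted p = 0.074). The 24 h libraries of ICAM1 had 48.2, 54.4 and 47.7 CPM. They lay below untreated replicate 1, at 55.3 CPM, and above untreated replicates 2 and 3, at 33.2 and 34.3 CPM. SAA1, an acute phase protein, had -0.88 at 8 h and 1.42 at 24 h (adjusted p = 7.1e-09). STC1, a secreted glycoprotein, had -1.41 and -1.45. Among 7 tested genes of processing and inhibition, 3 fell and 3 rose at 8 h and 1 rose at 24 h, with medians of 0.18 and 0.02, and IL18BP, which binds and blocks IL-18, rose by 1.62 at 8 h (edgeR adjusted p = 1e-07) and by 1.11 at 24 h (edgeR adjusted p = 4e-06) on the log2 scale.

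The 5 genes outside these lists whose course over the 9 libraries lay nearest to the members' mean course were LRP5, SREBF2, DDIT4, MSMO1 and PBXIP1. The measure was the root mean square distance of centered log2 CPM, from 0.106 for LRP5 to 0.131 for PBXIP1, beside 0.188 for CSF2 and 0.632 for IL11. LRP5, a WNT co-receptor, averaged 358 CPM untreated, 173 CPM at 8 h and 301 CPM at 24 h.

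The summed level of 12 leukocyte genes was 20.2, 16.1 and 18.2 CPM in untreated libraries, 8.50, 9.41 and 9.03 CPM after 8 h of TEPA and 22.6, 23.5 and 22.2 CPM after 24 h. Most of this sum was CSF1R, which averaged 13.5, 7.44 and 17.0 CPM in the 3 groups, and CD14, which averaged 3.85, 0.763 and 4.05 CPM. The sum was thus lowest at 8 h, as were most of the 10 genes, and its part in the result was not tested. ITGAM averaged 0.604, 0.439 and 1.41 CPM in the 3 groups, also lowest at 8 h, where its fall did not pass (edgeR adjusted p = 0.21). It was 2.33-fold higher at 24 h than in untreated cells (edgeR adjusted p = 0.00062) and 3.22-fold higher than at 8 h (edgeR adjusted p = 5.6e-05). CD68 averaged 0.153 CPM untreated and 0.329 CPM at 8 h, without overlap, but did not pass (edgeR adjusted p = 0.056). The defining marker PTPRC had at most 5 counts in any library and 0 in each 8 h library. CD3E, MS4A1, FCGR3A, S100A8 and S100A9 were at a mean of 0 CPM. Fibroblast markers summed to 55.5, 42.5 and 45.9 CPM untreated, 57.2, 61.8 and 60.0 CPM after 8 h and 112, 118 and 109 CPM after 24 h. PDGFRB led this sum in untreated cells and at 24 h, with means of 34.2 and 94.5 CPM, and COL1A1 led it at 8 h with 32.5 CPM against 27.1 CPM for PDGFRB. COL1A1 was 2.37-fold higher at 8 h than in untreated cells (edgeR adjusted p = 5.1e-10) and PDGFRB fell by 0.33 on the log2 scale (edgeR adjusted p = 0.012). The PDGFRB values overlapped, from 28.65 to 41.19 CPM untreated, where replicate 1 was the highest, and from 24.27 to 28.91 CPM at 8 h. The part of these markers in the result was not tested.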

How the data were processed

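RNA sequencing reads were processed by the authors, whose processing notes name FastQC, HISAT2 and featureCounts, and the deposited values are raw counts per gene on GRCh38, not normalized. Counts of all 9 libraries were fitted together with edgeR 4.0.16 in R 4.3.3 (filterByExpr with a minimum count of 10, TMM factors, quasi-likelihood test, no replicate term), with Benjamini-Hochberg adjustment over all 16556 genes and a threshold of 0.05. The fit was tested on simulated data, but the outcome is not given here and no result above rests on it. Alternatives were RLE and upper-quartile factors, library sizes without mitochondrial genes, DESeq2 1.42.0, other filters, a robust fit, only the 2 groups compared, a replicate block, a log2 fold limit of 0.5, another length scale and leaving out each library. Lists without untreated replicate 1 were added after seeing the data.

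The members and lists were chosen with earlier results of these data known, and genes the study picked on these libraries were marked from its supplement by name only. All 10 members are named in each comparison, and list genes only where called in a comparison. CXCR2, at 0, was named after its values were seen. The value of 1 leukocyte marker is not reported here. The 5 most alike genes were taken by distance among genes of at least 5 CPM with a pseudocount of 0.5. Promoters came from RefSeq, and exon lengths and 3′ UTRs from GENCODE. Total counts per library ranged from 34633755 to 49342659.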

Additional observations from a re-analysis of the deposited data

Results flagged for a closer look

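For 8 of the 10 genes the level differed between 24 h and 8 h of TEPA, by the edgeR test of 24 h against 8 h, in which the shared untreated libraries cancel. Neither time has untreated libraries of its own, so length of TEPA treatment and time in culture cannot be told apart. The difference of the log2 fold changes (24 h minus 8 h) was 2.06 for CXCL1, 2.01 for CXCL8, 1.18 for IL6, 1.07 for CSF2, 1.05 for CXCL2 and 0.61 for CXCL3. It was -0.62 for IL11 and -0.31 for LIF. IL1A and IL1B did not pass this test. Of all genes tested, 26.0% were called higher and 28.8% lower by it.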

How the results depend on the processing

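Of 537 log2 fold changes of the 10 genes under the alternatives, 510 kept their direction and their side of the threshold, 11 lost the call, 10 gained it and 6 changed sign. The counts include, for each comparison, fits without a library of the group it does not use. Such fits could change little, so the kept shares overstate how far the values were tried. At 8 h 178 of 179 were kept, with CXCL3 called lower only without untreated replicate 2. The number higher at 24 h went from 0 to 2 with no filter on low counts, and from 0 to 3 when libraries were left out in turn (range 0 to 3). The number lower at 24 h went from 5 to 3 with a log2 fold limit of 0.5, and ranged from 3 to 5 with a library left out, the 3 being without TEPA 24 h replicate 1. The number lower at 24 h against 8 h went from 2 to 1 with that limit. At 24 h CXCL2 changed sign under upper-quartile factors (0.00035) and ranged from -0.23 to 0.29 with a library left out, CXCL3 from -0.10 to 0.33 and CXCL8 from -0.0865 to 0.55. The cause was not tested.

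Same-numbered libraries did not deviate together over all tested genes (r from -0.0741 to 0.0348), so no pairing by number was seen. A value over all genes cannot exclude a pairing that touches only some of them. With a replicate block 9 genes were lower at 8 h, 5 at 24 h, and 5 were higher and 2 lower at 24 h against 8 h, where CXCL3 lost its call (adjusted p = 0.06). IL1A at 24 h was not called by DESeq2 (adjusted p = 0.058), and it drops out under a filter of 10 counts in every library. The lowest count of IL1A was 6 and that of IL1B 12, so their values rest on few reads.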
